A study of Mus musculus with 3 samples.

Results

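Dppa2, Dppa3, Dppa4, Dppa5a and Utf1 are 5 genes known for their expression in early embryos and embryonic stem (ES) cells. They were taken as the rows of both deposited tables that carry these gene names, and all 5 of 5 were found, 1 row each, among 36808 rows. The study sequenced messenger RNA from 3 mouse libraries of the D3 cell line, whose strain of origin the labels give as (C3H/HeH x 101/H)F1. One library came from undifferentiated wildtype ES cells at day 0, one from wildtype control embryoid bodies (EBs, cell aggregates grown for differentiation) at day 4, and one from day 4 EBs of the genotype Brachyury knockdown, in which T, the gene of a T-box transcription factor, is depleted. The control library is called nontarget in the second table. The labels give neither the method of knockdown nor whether the cells were a clone or a pool or grew on feeder cells.

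The DPPA genes are named for shared expression in pluripotent cells, not for a common protein family. DPPA2 and DPPA4 are a pair of related SAP-domain proteins that bind DNA as a heterodimer and keep developmental promoters free of DNA methylation. DPPA5A (ESG1) is a small RNA-binding protein with a KH-like domain, UTF1 is a chromatin-bound factor whose gene is a target of OCT4 and SOX2, and DPPA3 (Stella, PGC7) protects the maternal genome from demethylation in the zygote and marks primordial germ cells. All are known to be silenced as pluripotent cells turn into somatic lineages.

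Dppa2, Dppa3, Dppa4 and Dppa5a have near-identical copies elsewhere in the genome, most of them processed pseudogenes, which are reverse-transcribed copies of the messenger RNA without introns. The copies matter here because a short read from the coding sequence can match the gene and the copy almost equally well. A search of GENCODE M21 transcripts (mouse build GRCm38) for copies with at least 90% identity over at least 300 bases and 80% of the copy found 6 for Dppa2, 2 for Dppa3, 2 for Dppa4, 7 for Dppa5a and 0 for Utf1. The closest pairs were Dppa2 with Gm9788 on chromosome 19 (99.3% identity over 906 bases) and Dppa4 with Gm14058 on chromosome 2 (98.9% over 735 bases). Dppa3 and its pseudogene Dppa3-ps on chromosome X had 98.2% identity over 451 bases, and Dppa5a and Gm6083 on chromosome 5, its most abundant copy, had 96.9% over 357 bases.

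The pairs are shown for the 120 coding bases with the most differences within the longest ungapped alignment, in lower case with the differing bases in capitals, 5′ to 3′. Dppa2 (chromosome 16) and Gm9788 differed at 4 of these 120 bases and at 6 of 906 in all.
Dppa2: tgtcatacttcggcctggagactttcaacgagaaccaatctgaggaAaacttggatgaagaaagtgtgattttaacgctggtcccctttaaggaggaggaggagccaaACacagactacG
Gm9788: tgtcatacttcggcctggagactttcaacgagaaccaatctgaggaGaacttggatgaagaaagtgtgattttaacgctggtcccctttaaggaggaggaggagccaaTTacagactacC
Dppa4 (chromosome 16) and Gm14058 differed at 2 of 120 bases, in an ungapped stretch of 532 bases with 3 differences; the rest of their 735 aligned bases was not searched for this window.
Dppa4: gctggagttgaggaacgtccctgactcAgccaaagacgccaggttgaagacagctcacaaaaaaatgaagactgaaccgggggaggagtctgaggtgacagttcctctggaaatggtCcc
Gm14058: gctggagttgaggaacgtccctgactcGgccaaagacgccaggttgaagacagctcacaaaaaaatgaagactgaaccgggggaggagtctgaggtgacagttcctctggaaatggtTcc
Dppa5a (chromosome 9) and Gm6083 differed at 5 of 120 bases.
Dppa5a: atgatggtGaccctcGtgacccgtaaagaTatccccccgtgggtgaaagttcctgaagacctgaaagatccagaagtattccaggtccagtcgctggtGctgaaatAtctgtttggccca
Gm6083: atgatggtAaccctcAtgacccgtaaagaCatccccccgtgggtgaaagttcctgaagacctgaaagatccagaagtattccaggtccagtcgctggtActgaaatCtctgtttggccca
Dppa3 (chromosome 6) and Dppa3-ps differed at 5 of 120 bases.
Dppa3: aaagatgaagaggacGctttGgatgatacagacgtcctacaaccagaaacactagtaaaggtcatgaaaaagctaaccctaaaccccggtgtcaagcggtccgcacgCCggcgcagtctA
Dppa3-ps: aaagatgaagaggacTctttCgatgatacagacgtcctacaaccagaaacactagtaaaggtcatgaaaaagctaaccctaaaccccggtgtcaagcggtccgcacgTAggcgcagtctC

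Utf1 was the one gene of the 5 with no such copy and with a promoter entry in the RefSeq table used here. Its promoter, 250 bases before to 50 after the start (RefSeq, build GRCm38.p6, chr7:139943606-139943905, plus strand), is shown with GC boxes, the GGGCGG motif bound by SP and KLF factors, in capitals.
Utf1 promoter: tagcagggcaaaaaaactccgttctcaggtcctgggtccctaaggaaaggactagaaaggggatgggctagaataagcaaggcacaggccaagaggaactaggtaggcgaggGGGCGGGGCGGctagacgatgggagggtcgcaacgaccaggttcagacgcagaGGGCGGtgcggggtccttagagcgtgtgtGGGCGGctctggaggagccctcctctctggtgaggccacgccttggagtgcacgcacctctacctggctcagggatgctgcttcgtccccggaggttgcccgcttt
It held 4 GC boxes, counted over both strands and with 2 of them overlapping, and 35.7% of 32851 mouse promoters of this length held at least 1. It had 17 CpG dinucleotides, against a median of 7 over all promoters, and 62% G and C against 52.7%. The octamer ATGCAAAT and the T-box half-site AGGTGTGA were not found in this window on either strand, and 1.74% and 1.28% of all promoters held them.

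The values are FPKM, fragments per kilobase of transcript scaled to the size of the library, which set levels per transcript length. With 1 library per group, no replicate error can be given and nothing was tested. The 3 libraries were deposited as 2 tables, ES cells with control EBs and control EBs with knockdown EBs, and the control library stands in both. For all 5 genes the control values of both tables differed by at most 0.108%. A gene was compared where 1 of the libraries had 1 FPKM or more, on the scale log2(FPKM + 1), and a difference of at least 1, which is 2-fold on that scale, is called higher or lower. A gene that reached 1 FPKM in only 1 library of a pair could only come out higher there. The filter thus fixed its direction. Read counts are not given, and low values did not fall on clear steps of whole reads, so the depth is unknown. T itself was at 0.297 FPKM in ES cells, 254 in control EBs and 2.47 in knockdown EBs, 0.970% of the control level. Of 9 ES cell markers 8 were compared and all 8 were lower in control EBs than in day 0 cells, against 19.5% of all genes. Nr0b1, Tfcp2l1 and Tbx3 were under 1 FPKM in control EBs, so the filter fixed their direction. All 8 primitive streak and epiblast markers were higher, against 15.8% of all genes. Only Eomes and Otx2 of these reached 1 FPKM in ES cells, so for the others the filter fixed the direction. Of 8 feeder fibroblast markers 5 were listed at 0 in ES cells, and the list summed to 3.53, 4.48 and 16.4 FPKM in ES cells, control and knockdown EBs. Dcn and Thy1, at 9.12 and 6.45 FPKM, made up most of the knockdown sum, and the other markers were under 1 FPKM in every library.

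The question of the first comparison was how the 5 genes differ between undifferentiated ES cells and control EBs at day 4. Dppa2, Dppa4, Dppa5a and Utf1 were 10.4-fold to 86.7-fold lower in control EBs, and Dppa3 was at or near 0 in both libraries. All 4 genes that reached 1 FPKM were called lower, where 19.5% of all 13914 genes compared were lower and 15.8% higher. Dppa2 reached 1 FPKM only in the ES cells of this pair, so the filter fixed its direction. With a 3-fold rule all 4 were still lower, against 8.54% of all genes. The median over all genes was −0.10, and 5% of genes lay below −1.97. In RNA from whole cultures, fewer cells that express a gene and less RNA per cell cannot be told apart.

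**Figure D1:**
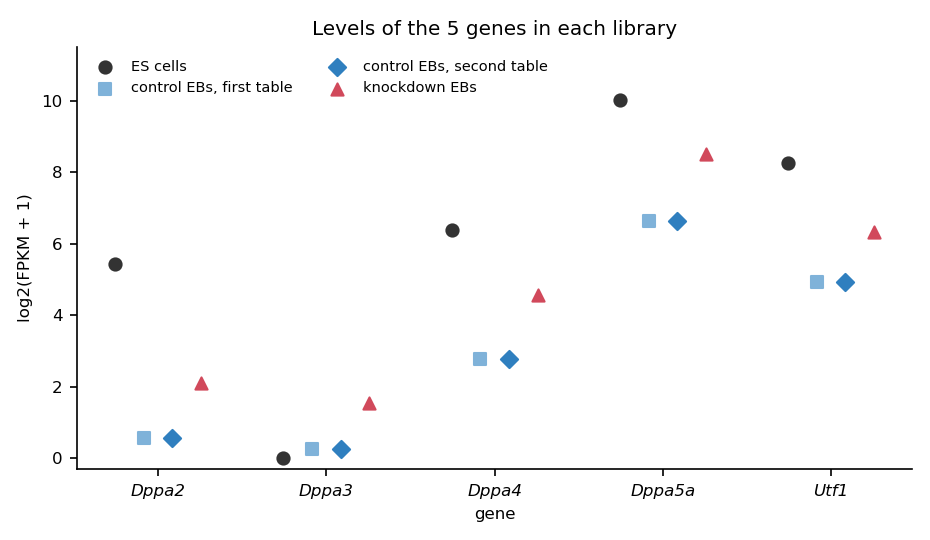
Level of each gene, as log2(FPKM + 1), in the 3 libraries; each point is 1 library, and the control library is shown from both tables. Dppa2, Dppa4, Dppa5a and Utf1 are highest in ES cells, lowest in control EBs and between them in knockdown EBs, and Dppa3 is highest in knockdown EBs.

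Dppa2, the first gene of the SAP-domain pair, was at 41.9 FPKM in ES cells and 0.482 FPKM in control EBs. The control value was 1.15% of the ES cell value, a difference of −4.85 in log2(FPKM + 1), and 0.208% of all genes had a lower one. The authors' deposited table gives p = 0.00205 for this pair of libraries. If that p is read as a two-sided normal p of the log ratio, its error is 2.09 on the log2 scale and the 86.7-fold ratio has a 95% interval from 5.08 to 1482, so that its size is imprecise.

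Dppa4, the partner of Dppa2, was at 82.7 FPKM in ES cells and 5.87 FPKM in control EBs. The ratio was 14.1-fold (95% interval from the authors' p 6.10 to 32.5; p = 5.92e-10 in the authors' deposited table), a difference of −3.61 in log2(FPKM + 1). Dppa4 and Dppa2 are neighbours 16.2 kb apart on chromosome 16 (mm9, 48283848 to 48294405 and 48310590 to 48319836), each alone in its deposited locus. The level of Dppa4 was 1.98 times that of Dppa2 in ES cells, 12.2 times in control EBs and 6.90 times in knockdown EBs, where the EB ratios rest on Dppa2 values under 4 FPKM.

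Dppa5a, which encodes the KH-domain protein, was the most abundant of the 5 genes in every library. It was at 1039 FPKM in ES cells, where it ranked 53 among all genes by FPKM, and at 97.6 FPKM in control EBs, where it ranked 1166. The ratio was 10.6-fold and the difference −3.40 in log2(FPKM + 1). The p in the authors' deposited table is listed as 0, which gives no error for this gene. Genes within 1.5-fold of its mean level had a median error of 0.118 on the log2 scale. This median, like those given below for other genes, leaves out every gene whose p is listed as 0.

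Utf1 was at 304 FPKM in ES cells, rank 273, and at 29.4 FPKM in control EBs, rank 3372. The ratio was 10.4-fold and the difference −3.33 in log2(FPKM + 1), close to that of Dppa5a. The authors' deposited table lists its p as 0 as well, and genes of its mean level had a median error of 0.219 on the log2 scale. The level of Dppa5a was 3.41 times that of Utf1 in ES cells and 3.32 times in control EBs, so both genes were lower in nearly the same proportion.

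Dppa3 was listed at 0 for ES cells, and control EBs had 0.204 FPKM. It did not reach 1 FPKM in either library and was not compared. The authors' deposited table lists its p as 0 for this pair too, so a listed 0 is in itself no sign of a measured difference. Such a 0 may be a failed estimate, because the control library has 133 genes at 0 in one table that reach 5 FPKM in the other. Its locus (mm9, chromosome 6, 122576428 to 122580290) holds no other gene. Genes of similar transcript length, 700 to 1000 bases, that were above 0 had a lowest decile of 0.467 FPKM in ES cells and 0.256 FPKM in control EBs. The control value of Dppa3 lay under that decile, and a level of this size was not detectable with any certainty. Dppa1, the one further row of the tables with a Dppa name, was listed at 0 in every library.

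The second comparison asked how the genes differ in day 4 EBs when Brachyury is knocked down. Dppa4, Dppa5a and Utf1 were higher in the knockdown library than in the control library, by 2.70-fold for Utf1 to 3.90-fold for Dppa4. Dppa2 (6.87-fold) and Dppa3 (9.42-fold) were called higher too. Of this pair both reached 1 FPKM only in the knockdown library, so the filter fixed their direction, and a count of 5 of 5 rests partly on it. In this comparison 5.31% of all 13760 genes were higher and 2.53% lower, and the median over all genes was 0.06. The differences of the 5 genes lay between 1.28 and 1.87 in log2(FPKM + 1), and 5% of all genes were above 1.03. Of the 8 ES cell markers compared between both EBs, 3 were higher and 0 lower (median 0.70). Nr0b1, 1 of the 3, and also Tfcp2l1 and Tbx3 were under 1 FPKM in the control, so the filter fixed their direction. Of 8 streak and epiblast markers 4 were lower and 1 higher (median −1.05), and their sum was 758 FPKM in the control and 433 in the knockdown. T, the gene knocked down, is 1 of the 4. Its own values of 254 and 2.47 FPKM make up most of the fall in the sum. The part of these marker differences in the values of the 5 genes was not tested. With a 3-fold rule 2 of 5 were higher, Dppa4 and Dppa5a, against 2.14% of all genes. With a floor of 5 FPKM only Dppa4, Dppa5a and Utf1 were compared, and these 3 were higher.

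Dppa5a reached 97.6 FPKM in the control and 359.9 FPKM in the knockdown library, 3.69-fold higher, a difference of 1.87 in log2(FPKM + 1). The p in the authors' deposited table is listed as 0, and genes of its mean level had a median error of 0.151 on the log2 scale. Utf1 was at 29.4 and 79.4 FPKM, 2.70-fold higher (95% interval from the authors' p 1.77 to 4.13; p = 4.21e-06 in the authors' deposited table). Dppa4 was at 5.87 and 22.9 FPKM, 3.90-fold higher (95% interval 1.58 to 9.67; p = 0.00326 in the authors' deposited table). For these 3 genes the difference between both EB libraries was larger than the error that the authors' p or genes of like level give, an error of 1 library against another and not of separate cultures.

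For Dppa2 and Dppa3 it was not. Dppa2 was at 0.482 FPKM in control EBs and 3.32 FPKM in knockdown EBs, a ratio of 6.87 with a 95% interval from 0.335 to 141 (p = 0.211 in the authors' deposited table). Dppa3 was at 0.204 and 1.92 FPKM, a ratio of 9.42 with an interval from 0.0986 to 899.8 (p = 0.335 in the authors' deposited table). Both were called higher by the rule of size, and both values in control EBs were too low to fix the ratio.

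**Figure D2:**
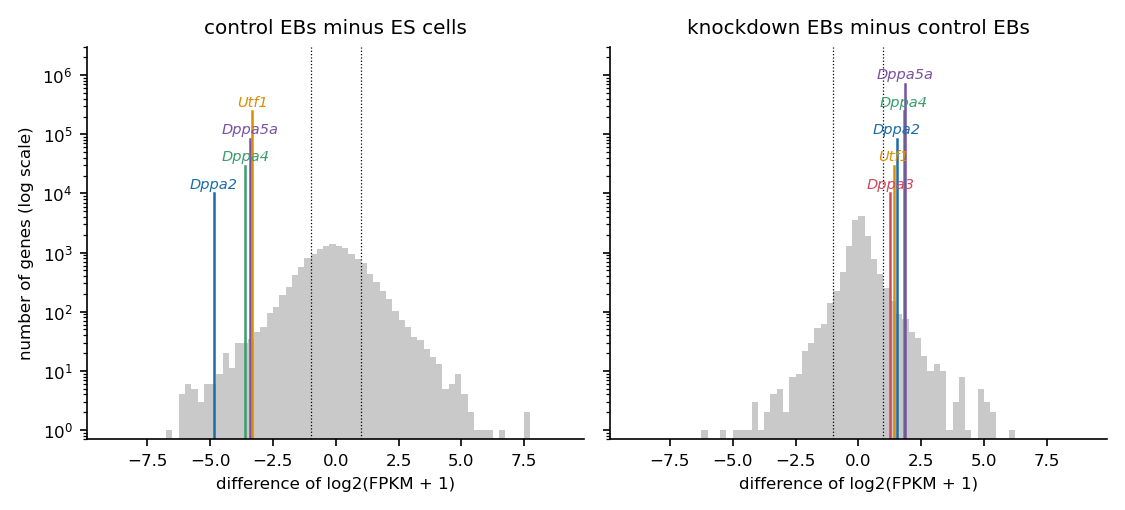
Histogram of the difference of log2(FPKM + 1) over all genes compared (13914 on the left, 13760 on the right), with a log scale for the number of genes; dotted lines mark −1 and 1, and coloured lines mark the genes by name at heights chosen for legibility. On the left 4 genes lie between −4.85 and −3.33, and on the right all 5 lie between 1.28 and 1.87.

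Knockdown EBs and ES cells were set side by side across the tables, without use of the control library. In knockdown EBs Dppa5a was at 34.7% of its ES cell level, Dppa4 at 27.7%, Utf1 at 26.1% and Dppa2 at 7.92%. All 4 were therefore still lower than in ES cells by the 2-fold rule, where 17.8% of 14374 genes were lower and 18.7% higher. Dppa3 differed from the others, since it was listed at 0 in ES cells and was at 1.92 FPKM in knockdown EBs. By level, the order was ES cells, knockdown EBs, control EBs for Dppa2, Dppa4, Dppa5a and Utf1. The control library enters both comparisons, so the position of the knockdown value between the others is a description of these 3 libraries.

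Most copies with a signal were lower in the control library than in ES cells, and higher with the knockdown. Of the 17 copies 13 have a row in the tables, and for 12 of these the deposited locus is on the chromosome that GENCODE M21 gives. Of the 12, 9 reached 1 FPKM, and 7 of these 9 were lower in control EBs than in day 0 cells and 9 of 9 were higher in knockdown than in control EBs. Over all genes these shares were 19.5% and 5.31%. The rows of copies may hold reads of the genes, so the copies are not separate observations. Of both EBs, Gm9788, Gm5229, Gm10112 and Dppa3-ps (Gm6269) reached 1 FPKM only in the knockdown library, so the filter fixed their direction. Between ES cells and control EBs, Gm9788, Gm5229 and Gm10112 reached 1 FPKM only in ES cells, and the filter fixed their direction there too. The counts rest partly on it. Gm9788, the copy of Dppa2, was at 51.3 FPKM in ES cells, 0.618 in control EBs and 5.64 in knockdown EBs, more than Dppa2 itself in each library. Gm14058 and AC114677.1, the copies of Dppa4, had 43.2 and 18.1 FPKM in ES cells, then 5.34 and 2.23 in control EBs, then 18.4 and 10.1 in knockdown EBs.

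Among copies of Dppa5a, Gm6083 was at 255 FPKM in ES cells, 26.0 in control EBs and 88.6 in knockdown EBs. Its knockdown value was 34.8% of its ES cell value, against 34.7% for Dppa5a. Gm6798 was at 243, 20.3 and 86.0 FPKM. For 3 further copies of Dppa5a the knockdown value was nearer to or above the ES cell value. Gm5229 was at 2.61, 0 and 3.16 FPKM, 121% of its ES cell value in the knockdown, and Gm10112 was at 3.33, 0.317 and 2.67 FPKM, 80.1% of it. Gm15310, which lies in a locus of 4 genes, was not called lower in the control, with 32.2 FPKM in ES cells, 16.0 or 15.2 in the control, by table, and 64.4 in the knockdown. Gm5250 was at 109, 11.4 and 42.5 FPKM, but its deposited locus (mm9, chromosome 9, 78093301 to 78094403, 120 kb from Dppa5a) is not on the chromosome 1 of its GENCODE M21 entry, so its identity to Dppa5a could not be read.

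**Figure D3:**
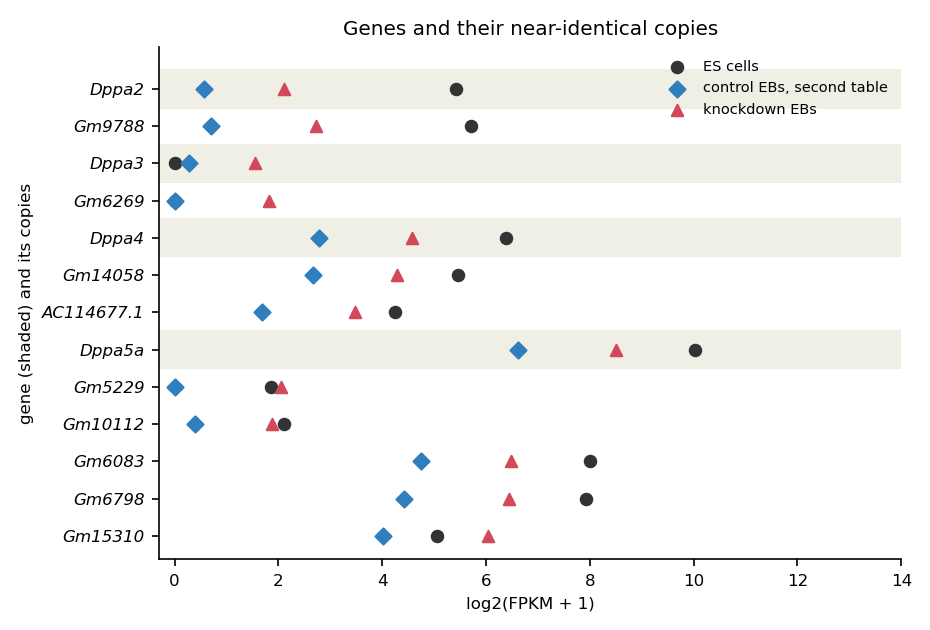
Level, as log2(FPKM + 1), of Dppa2, Dppa3, Dppa4 and Dppa5a (shaded) and of their copies that reached 1 FPKM, in ES cells, control EBs and knockdown EBs; each point is 1 library. For Gm6269 the ES cell point at 0 is hidden by the control point, and in all rows the knockdown point lies to the right of the control point.

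How the authors divided reads among gene and copy is not known here, so the levels of Dppa2, Dppa3, Dppa4 and Dppa5a are uncertain. When FPKM times transcript length were summed over each gene and its copies, without Gm5250, a setting added after seeing the data, the gene itself held 61.4% to 68.7% of the sum for Dppa2, 60.0% to 72.3% for Dppa4 and 71.5% to 77.0% for Dppa5a. The summed levels were 85.6-fold, 11.7-fold and 10.1-fold lower in control EBs than in day 0 cells, in that order. They were 7.60-fold, 3.86-fold and 3.76-fold higher in knockdown than in control EBs. The sum for Dppa2 in control EBs was low, at 0.711 FPKM. The pseudogene of Dppa3, Dppa3-ps, is named Gm6269 in the tables and lies in a locus of 2 genes. It was listed at 0 for ES cells and control EBs but had 2.55 FPKM in the knockdown. The sum for Dppa3 was 16.2-fold higher in the knockdown library. Its control value of 0.204 FPKM came from Dppa3 alone and was too low to fix this ratio.

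Genes within 100 kb of the 5 were examined by their deposited loci. Next to Dppa5a, 7.93 kb away, lies Ooep, which encodes a KH-domain protein of the egg's subcortical maternal complex. Ooep was at 33.7 FPKM in ES cells, 1.17 in control EBs and 9.34 in knockdown EBs, with p = 0.000358 and p = 0.0341 in the authors' deposited table. Ddx43, a DEAD-box helicase gene 26.8 kb away in a locus of 2 genes, had 0.124 FPKM in control EBs against 0.379 with the knockdown, and Mto1, 79.7 kb away in such a locus too, was called in neither comparison (16.8, 8.20 and 9.42 FPKM; −0.95 and 0.18 in log2(FPKM + 1)). Of 14 neighbours of Dppa5a 4 reached 1 FPKM, of which 3 were lower in control EBs and 1 was higher in knockdown EBs. The shares over all genes were 19.5% and 5.31%. Of the lower ones, Ddx43 and E330016A19Rik reached 1 FPKM only in ES cells of this pair, so the filter fixed their direction. The count of 3 rests partly on it.

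Dppa3 lies in the gene cluster of chromosome 6 that also holds Gdf3, which encodes a TGF-beta family ligand, and Nanog. Gdf3, 16.3 kb away, was at 28.9 FPKM in ES cells, 1.16 in control EBs and 8.60 in knockdown EBs, with p = 0.000689 and p = 0.0428 in the authors' deposited table. Apobec1, which encodes a cytidine deaminase 24.0 kb away, was at 8.30, 0.709 and 2.66 FPKM, with p = 0.0477 and p = 0.325 in the authors' deposited table, so that its knockdown difference is imprecise. Nanog, 77.2 kb away, had 257 FPKM in ES cells, 128 in control EBs and 91.7 with the knockdown, within 2-fold of the control. Slc2a3, a glucose transporter gene whose locus holds 2 genes, had 326, 201 and 358 FPKM. Of 12 neighbours of Dppa3 9 reached 1 FPKM, 4 were lower and 1 higher in control EBs, and 2, Gdf3 and Apobec1, were higher in knockdown EBs. Apobec1 was under 1 FPKM in the control, so the filter fixed its direction in both comparisons. It also fixed that of Mfap5, 1 of the 4 lower in control EBs (7.86 and 0 FPKM in ES cells and control EBs). Over all genes 19.5% were lower and 15.8% higher in control EBs, and 5.31% were higher in knockdown EBs.

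Around Utf1 (mm9, chromosome 7, 147129688 to 147131011) 4 of 8 neighbours reached 1 FPKM and none was called between ES cells and control EBs. Kndc1, 2.25 kb away, was at 1.33 FPKM in ES cells, 0.303 in control EBs by the second table and 1.80 in knockdown EBs, and was called higher in knockdown EBs. The filter fixed that direction, as the control value was under 1 FPKM. Tubgcp2, which encodes a subunit of the gamma-tubulin complex, had 23.3 FPKM in ES cells against 18.7 in control EBs. Besides each other, Dppa2 and Dppa4 had 1 neighbour, Gm7204, at 286, 567 and 409 FPKM.

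**Figure D4:**
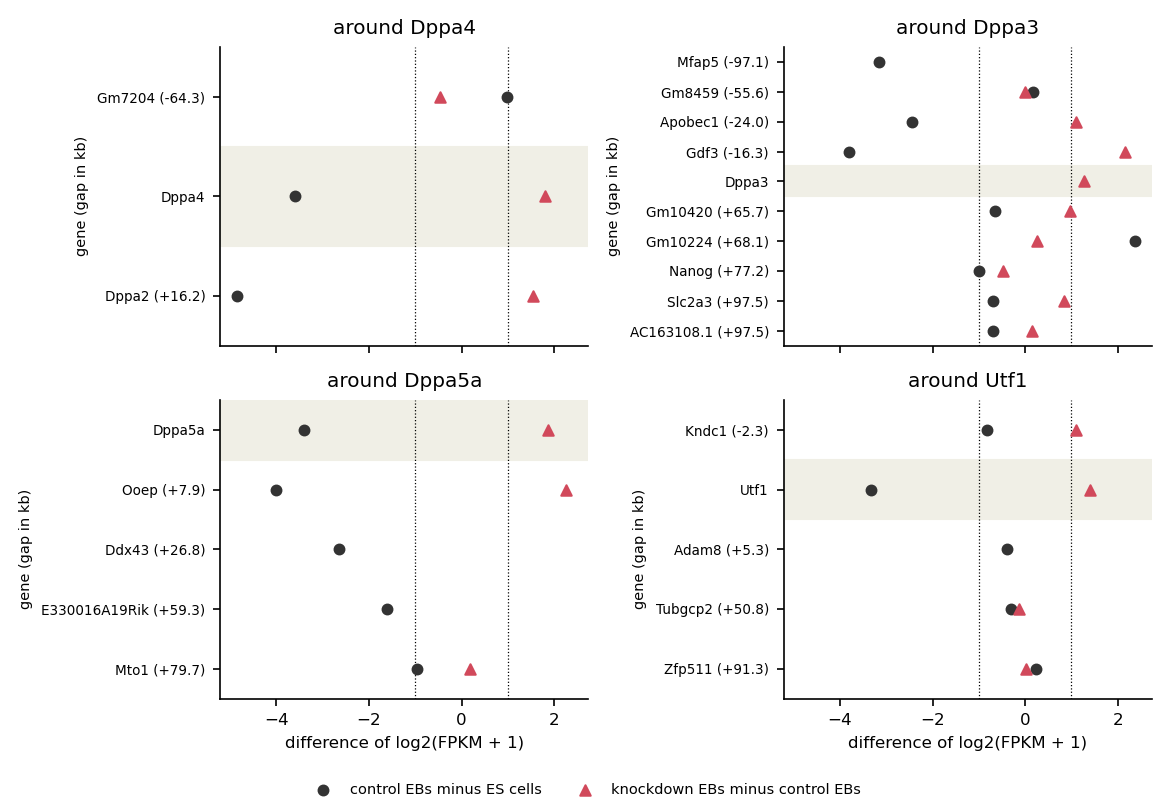
Difference of log2(FPKM + 1) of Dppa4, Dppa3, Dppa5a and Utf1 (shaded) and of the genes within 100 kb that reached 1 FPKM, in order along the chromosome with the gap in kb in brackets; dots are control EBs minus ES cells and triangles knockdown EBs minus control EBs. Ooep beside Dppa5a and Gdf3 beside Dppa3 have differences of −4.00 and −3.80 in the first comparison and of 2.26 and 2.16 in the second.

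For each gene compared in both tables, the 3 genes nearest in their pair of differences were listed, out of 9092 genes with at least 5 FPKM in both tables. The likeness is a distance in log2 units over 3 libraries, and nothing on function follows from it. Nearest to Dppa2 were Mylpf (distance 0.13; 160.0, 4.43 and 16.7 FPKM in ES cells, control and knockdown EBs), Tex19.1 (0.22; 67.2, 1.24 and 6.53 FPKM) and Jam2 (0.52). Nearest to Dppa4 were Fblim1 (0.13; 123, 8.32 and 33.3 FPKM), Dppa5a (0.22) and Gm6798 (0.25). Nearest to Dppa5a were its copies Gm6798 (0.20) and Gm6083 (0.21), and Dppa4. Nearest to Utf1 were Gm13145 (0.10), Gm13147 (0.20) and Adam23 (0.25; 48.7, 4.54 and 11.9 FPKM).

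Genes tied to the 5 by function were counted from lists. Of 5 genes described as needing DPPA2 or DPPA4 for their expression, 4 were compared in each table. All 4 were lower in control EBs than in day 0 cells (median −3.55, against −0.10 over all genes), and 3 were higher in knockdown than in control EBs (median 1.40, against 0.06). Of the 4, only Trap1a reached 1 FPKM in control EBs. For Mael, Hormad1 and Syce1 the filter fixed the direction in both comparisons, so these counts and medians say little about direction. Trap1a, which encodes a tumour rejection antigen, was at 135 FPKM in ES cells, 7.97 in control EBs and 29.5 in knockdown EBs, in a locus of 3 genes. Mael, a gene of the germline piRNA pathway, was at 14.1, 0.406 and 2.10 FPKM, and the authors' deposited table gives p = 0.337 for its knockdown and control values. Hormad1, a meiotic chromosome gene and the last of the 3, had 3.69 FPKM in ES cells, was listed at 0 in the control and had 2.16 FPKM with the knockdown. Syce1, a synaptonemal complex gene, had 17.1, 0.417 and 1.21 FPKM and was not called between both EBs (0.64 in log2(FPKM + 1)). Genes of the 2-cell stage that DPPA2 and DPPA4 activate through Dux could hardly be compared. Of 12 matched genes 12 were listed at 0 in control and in knockdown EBs, and Zscan4f, the one gene compared, was at 1.02 FPKM in ES cells. Whether these 0 values measure low expression is not known here. A listed 0 can be a failed estimate, since Stat3, a widely expressed gene in a locus of 3 genes, is at 0 throughout. Ctnnb1, in a locus of 5 genes, is at 0 for the control in one table and at 320 FPKM in the other. Most of the 12 genes, by contrast, lie alone in their locus.

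Of 8 DNA methylation genes, with Uhrf1 among them, 6 were compared. Of these 5 were lower in control EBs than in day 0 cells (median −1.52) and 0 of 6 were called between knockdown and control EBs (median 0.31). Few of all genes were called between both EBs (5.31% higher and 2.53% lower), so 0 of 6 is near that share. Uhrf1, the maintenance factor that DPPA3 displaces from chromatin, was at 117 FPKM in ES cells, 48.6 in control EBs and 47.5 in knockdown EBs. Dnmt1 was at 94.8, 26.7 and 24.3 FPKM, Tet1 at 46.0, 2.68 and 5.02, and Tet2 at 42.5, 1.16 and 2.85. Of the KH-domain and maternal complex list 6 of 7 were matched and 2 compared. Both were lower in control EBs (median −2.65), and Ooep was higher in knockdown EBs while Tle6 was within 2-fold (5.21, 1.56 and 2.38 FPKM).

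All 5 genes are among the factors screened in the first induction of pluripotent stem cells from fibroblasts. Of 18 other such candidates 17 were matched and 12 compared in each table. Of these 11 were lower and 0 higher in control EBs than in day 0 cells (median −1.50), and 3 were higher and 0 lower in knockdown than in control EBs (median 0.07). Zfp42 was at 467 FPKM in ES cells, 5.51 in control EBs and 28.5 in knockdown EBs, whereas Klf4 was at 118, 1.18 and 1.45 FPKM. Of 6 genes with a known OCT4 and SOX2 element, as in Utf1, 5 were compared. Of these 4 were lower and 1, Lefty1, was higher in control EBs (3.39 against 50.3 FPKM), and 1, Fgf4, was higher in knockdown EBs (63.6, 0.847 and 8.12 FPKM). Fgf4 was under 1 FPKM in the control, so the filter fixed its direction in both comparisons. It also fixed that of Tcl1, 1 of the 11 candidates lower in control EBs (17.4 and 0.494 FPKM). Pou5f1, which encodes OCT4, was at 1058, 390.4 and 361 FPKM, and Sox2 was listed at 0 in all libraries, in a locus of 3 genes.

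Since DPPA3 and DPPA5A also mark germ cells, primordial germ cell markers were counted. Of 10 markers 3 were higher and 6 lower in control EBs than in day 0 cells (median −1.31), against 15.8% and 19.5% of all genes. Of the lower ones, Prdm14, Dazl and Ddx4 reached 1 FPKM only in ES cells of this pair, so the filter fixed their direction. Of 9 compared between both EBs 2 were higher, Prdm14 (0.292 and 2.65 FPKM) and Ddx4 (0.487 and 2.20 FPKM), and 1, Dnd1 (17.3 and 7.67 FPKM), was lower in the knockdown (median 0.60). Prdm14 and Ddx4 were under 1 FPKM in the control, so the filter fixed their direction. The markers summed to 152 FPKM in ES cells, 179 in control EBs and 154 in knockdown EBs, and none was at 0 in any library. Ifitm3 alone was at 53.3, 144 and 112 FPKM, most of the sum in both EBs. The sum is thus no measure of the other markers. Extraembryonic endoderm markers were counted as a sign of other cells. They summed to 212 FPKM in ES cells, more than in either EB library, and 5 of 6 were lower in control EBs (median −2.53). For Sox7 and Sox17 the filter fixed that direction, as their first-table control values were under 1 FPKM. With the knockdown 2 of 5 were higher and 1, Lama1, was lower (median 0.96). Lama1 was under 1 FPKM in the knockdown, so the filter fixed its direction. The markers summed to 89.9 FPKM for the knockdown. For the control library their sum was 24.6 FPKM in the first table and 50.9 in the second, where Sox17 stands at 0.312 and 26.3 FPKM, so the sum depends on the table. Of the feeder markers, Dcn was at 0.253 and 9.12 FPKM in control and knockdown EBs, so the filter fixed its direction. Thy1 was at 3.30 and 6.45 FPKM and was not called, and the other feeder markers were under 1 FPKM in every library. The part of such cells in the values of the 5 genes was not tested.

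**Figure D5:**
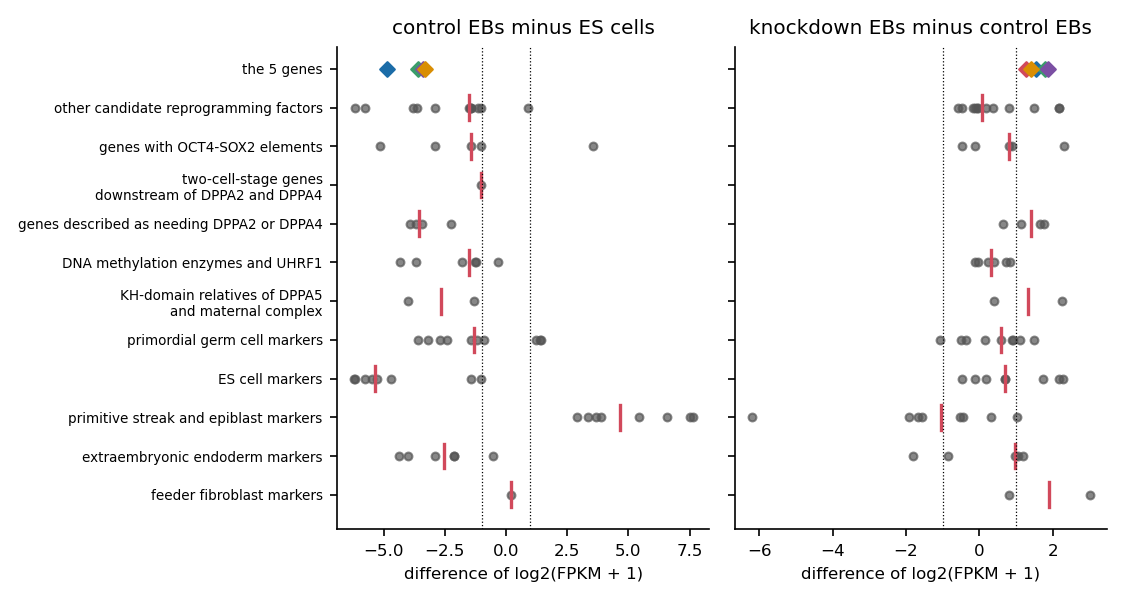
Difference of log2(FPKM + 1) of the 5 genes (coloured diamonds) and of the compared members of each list (dots), with the list median as a red line and dotted lines at −1 and 1. The genes described as needing DPPA2 or DPPA4 have medians of −3.55 and 1.40, and the DNA methylation genes have medians of −1.52 and 0.31. Most of the former reached 1 FPKM in only 1 library of each pair, so the filter fixed their direction.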

How the data were processed

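The data were 2 deposited tables of 36808 genes for 3 libraries, 1 each of ES cells, control EBs and knockdown EBs. The submitters' processing notes name Bowtie, Cuffdiff and mm9 and give no versions. Per the file headers, the values are FPKM computed by the authors, with an unadjusted p-value in the authors' tables. Annotation, read length and depth are not given in the sources used. The first table's column of day 4 EBs stood for the control.

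Symbols turned into dates (25) were looked up by gene ID, 4482 short RNAs were left out and rows of 1 symbol summed, which left 32181 genes. Locus starts were shifted by 1 base. List genes were matched by ID (93 of 101) or symbol (2). Copies were found with BLAST 2.17.0 in GENCODE M21, used for names, lengths and sequences. Errors were derived from the authors' p as the log ratio over its normal deviate. Calling was checked on simulated data. Python 3.11.15, pandas 2.3.3 and scipy 1.17.1 were used. Named genes were the 5, T, up to 4 genes per list with the greatest difference at 5 FPKM or more, genes within 100 kb, rows whose symbol starts with Dppa or Utf, and the 3 nearest patterns; copies and some further list genes were named after their values were seen. The genes and lists were chosen with earlier results of these data known. Alternatives were 2 pseudocounts, 2 floors, 2 scalings, a 3-fold rule, other handling of rows and short RNAs, the control value of the other table, and the copies added.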

Additional observations from a re-analysis of the deposited data

Results flagged for a closer look

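Gm6269, the processed pseudogene of Dppa3 on chromosome X, was at 2.55 FPKM in knockdown EBs while it was listed at 0 in control EBs and ES cells, a signal in a row outside the 5 genes and above the control. Its locus holds 2 genes, and Dppa3 itself was at 1.92 FPKM in the same library.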

How the results depend on the processing

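The genes lower in control EBs relative to ES cells numbered 4 under all 11 alternatives, and the 4 lower in knockdown EBs than in ES cells under all 5 tried for that comparison. The 5 genes higher in knockdown EBs became 3 with a floor of 5 FPKM, since Dppa2 and Dppa3 are below it, and 2 with a 3-fold rule, and were 5 under the other 9 alternatives. Over all lists, the 16 genes higher in knockdown EBs became 9 with a 3-fold rule, 12 with a floor of 5 FPKM and 23 with a pseudocount of 0.1. No difference of the 5 genes changed its direction. Scaling to the same sum of FPKM moved the median of all genes by −0.41 in the comparison of control EBs with ES cells, and Utf1 then stood at −3.78 and Dppa5a at −3.85. A pseudocount of 0.1 raised the low genes: Dppa3 from 1.55 to 4.34 for the knockdown against ES cells and from 1.28 to 2.73 against control EBs, and Dppa2 from 1.54 to 2.55 against control EBs. The addition of copies was chosen after seeing the data. No paired analysis was possible because each group is 1 library, and no library could be left out. Depth is unknown, so the values of Dppa3, and of Dppa2 in EBs, remain imprecise.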
